A study of Mus musculus with 14 samples.

Results

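Transforming growth factor beta (TGF-beta) ligands, activin and bone morphogenetic protein (BMP) genes, with follistatin and both TGF-beta receptor genes, were followed through 5 weeks of mammary gland growth in the mouse. The members were the probe sets of the expression array whose annotation names exactly 1 of Tgfb1, Tgfb2, Tgfb3, Inhba, Inhbb, Bmp2, Bmp4, Fst, Tgfbr1 and Tgfbr2, which gave 17 of the 22690 probe sets on the array and 10 of 12393 named genes. Of these, 15 probe sets of 9 genes entered the tests. The Bmp2 probe set 1423635_at and the Tgfbr2 probe set 1422019_at were too dim and are given as values only.

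TGF-beta, activin and BMP proteins are secreted dimers that bind pairs of type I and type II receptor kinases, which phosphorylate Smad proteins that then enter the nucleus and set gene transcription. Activins are dimers of the inhibin beta subunits encoded by Inhba and Inhbb, and follistatin binds activin and keeps it from its receptors. In the growing mammary gland TGF-beta is known as an inhibitor of ductal growth and branching, and activin B, the dimer of the Inhbb subunit, as a factor required for ductal elongation and alveolar development.

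Whole inguinal mammary glands (number 4) were taken from untreated female CD1 mice, an outbred stock, at 3, 4, 5, 6 and 7 weeks of age, which the title of the series places in puberty. The glands were stripped of their lymph nodes, total RNA was pooled from at least 3 mice per array, and biotin-labelled cRNA was hybridised to Affymetrix arrays. The 14 arrays were A, B and C for each of 3wk, 4wk, 6wk and 7wk (3 per age), and A and B for 5wk (2). The sources used here do not say whether the pools of an age held different mice, so p-values measure the spread between these pools, which may be technical in part. All groups were of the same stock, sex and tissue, with no ovariectomised, hormone-treated or mutant animals among them, and age was the only labelled difference. The array controls of RNA length and of hybridisation also differed between ages, as given below, and cannot be separated from age by the design. The tissue was whole, so fewer cells of a type and less RNA per cell cannot be told apart in any value below.

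Each deposited value is a ratio, the probe set's signal divided by its own median over the 14 arrays, so 1 is that probe set's middle array and a ratio says nothing of the level of 1 gene beside another. Array medians lay between 0.953 and 1.017. Differences are given as log2 of the later age over the earlier, with the standard error (SE) of a limma fit over all arrays, and a probe set was called at a Benjamini-Hochberg adjusted p under 0.05 over all 19143 probe sets tested. Markers of the tissue were measured: Krt8 of luminal epithelium was higher at 7wk than at 3wk by 1.55 to 1.70 on its 3 probe sets, and Krt14 of basal epithelium by 2.07 and 2.13 on 2 of its 3 probe sets, with 0.09 on the third, which was not called. Adipoq of adipocytes fell by 0.43 (SE 0.11) at 7wk against 3wk, while Col1a1 of fibroblasts stood at −0.45 and −0.42 and Pecam1 of endothelium at −0.25, none of which was called.

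Over the 5 ages, 6 of the 15 member probe sets differed in limma's F test, against 9.6% of all probe sets tested, and they belonged to 4 genes: Inhbb, Tgfb3, Tgfbr1 and Tgfbr2. At an unadjusted p under 0.05 the count was 9 of 15, against 26.9% of all. The members were chosen with earlier results of these data known. Their shares, here and below, therefore describe the members and do not test for an excess over all probe sets. Tgfb3 and Inhbb were the ligands that rose at 7wk against 3wk, Tgfb3 4.83-fold and Inhbb 5.81-fold on 1 probe set and 1.93-fold on the other, and Tgfbr2 rose 1.91-fold on 1 of its 2 tested probe sets. Tgfb1, Bmp4 and Fst were not called at any age, and the single probe set of Inhba, the other activin subunit, ran the other way without reaching the threshold.

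**Figure D1:**
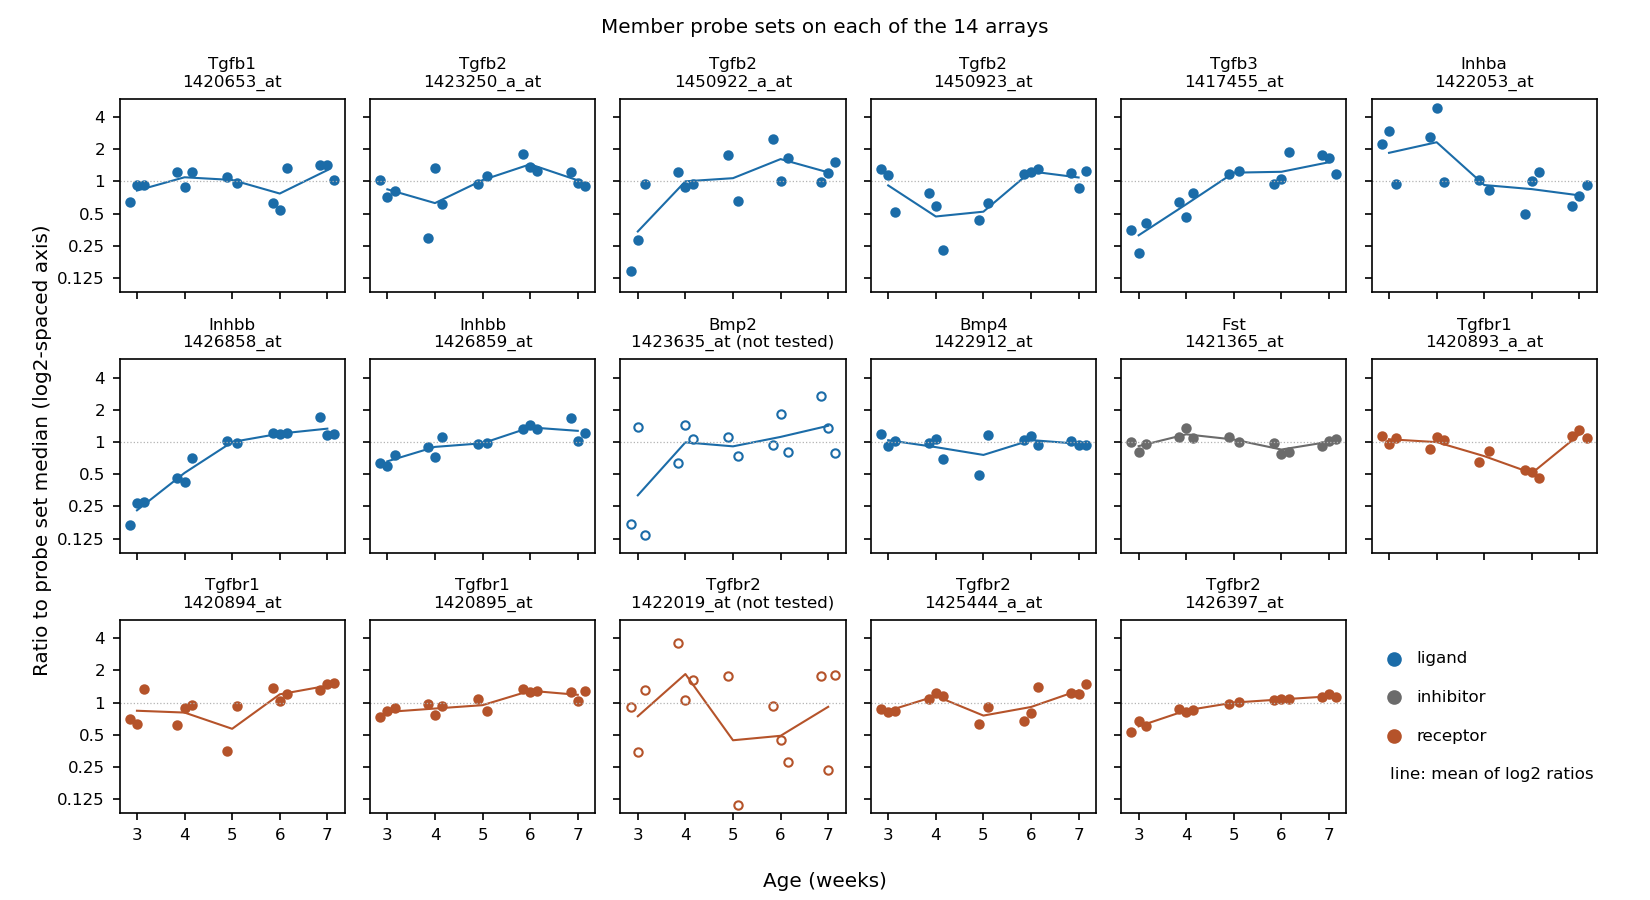
Ratio of each of the 17 member probe sets to its own median, on a log2-spaced axis, against age in weeks on each of the 14 arrays (points, A to C from left to right within an age), with the mean of the log2 ratios as a line. Open points mark the 2 probe sets that were not tested, and the Tgfb3, Inhbb 1426858_at and Tgfbr2 1426397_at panels show 3wk arrays below all arrays of 5wk, 6wk and 7wk.

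The 2 activin subunits are shown with the sequence before a transcription start, because they gave the most unlike courses of the ligands. Both stretches are the 250 bases upstream of a start in RefSeq's table for GRCm38.p6, written 5′ to 3′ on the strand of the gene, with capitals for a motif match. The Inhbb stretch lies at chr1:119422249-119422498 on the minus strand and the Inhba stretch at chr13:16011601-16011850 on the plus strand. The Inhbb stretch adjoins the gene, which ends at 119422248. The Inhba stretch instead lies inside the gene, chr13:16004256-16031609, before an internal start, so the 2 stretches are not equivalent.
Inhbb: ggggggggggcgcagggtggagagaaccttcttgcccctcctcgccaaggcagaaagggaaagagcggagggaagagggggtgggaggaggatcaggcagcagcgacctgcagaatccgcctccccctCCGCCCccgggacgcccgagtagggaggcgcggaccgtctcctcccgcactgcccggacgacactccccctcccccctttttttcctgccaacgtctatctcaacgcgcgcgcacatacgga
Inhba: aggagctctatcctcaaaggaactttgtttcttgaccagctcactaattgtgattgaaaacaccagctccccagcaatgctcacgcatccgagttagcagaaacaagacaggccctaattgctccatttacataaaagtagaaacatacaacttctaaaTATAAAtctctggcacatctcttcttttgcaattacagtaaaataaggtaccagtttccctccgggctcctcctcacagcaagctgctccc
Both strands were searched for the TATA box in the form TATAAA. The GC box was searched for as GGGCGG, and the letters CCAAT stood for the CCAAT box. The cyclic AMP response element was searched for as TGACGTCA, and no matches in these 2 stretches overlapped. In the Inhbb stretch the capitals mark a GC box read on the opposite strand, with its first base at −122 from the start, and 68% of the bases were G or C. The Inhba stretch held a TATAAA with its first base at −91, and 43.2% of its bases were G or C. Of all 32851 promoter windows of that length, 32.7% held GGGCGG, 12.4% held TATAAA, 33.8% held CCAAT and 1.55% held TGACGTCA, and the median G and C content was 52.4%. A match is a stretch of letters and says nothing of what binds there.

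Inhbb encodes the subunit of activin B. Its probe set 1426858_at had ratios of 0.166, 0.266 and 0.274 on 3wk arrays A, B and C, then 0.457, 0.419 and 0.709 on the 4wk arrays and 1.01 and 0.987 on the 5wk arrays. The 6wk arrays stood at 1.21, 1.18 and 1.20 and the 7wk arrays at 1.72, 1.17 and 1.18. Every array of an age lay above every array of the age before until 6wk, and the 6wk and 7wk arrays overlapped. The mean was 1.36 ± 0.318 at 7wk against 0.235 ± 0.0602 at 3wk (SD, n = 3 each), 5.81-fold higher (log2 2.54, SE 0.25, adjusted p = 0.000198), and it was 5.22-fold higher at 6wk than at 3wk (log2 2.38, adjusted p = 0.000254).

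The second Inhbb probe set, 1426859_at, gave the same direction with a smaller change. The 3wk arrays had 0.635, 0.602 and 0.751, the 4wk arrays 0.905, 0.731 and 1.10, the 5wk arrays 0.959 and 0.988, the 6wk arrays 1.34, 1.44 and 1.34, and the 7wk arrays 1.67, 1.01 and 1.22. No array of 5wk, 6wk or 7wk fell within the 3wk range, while 7wk B stood near the 5wk arrays. It rose 1.93-fold at 7wk against 3wk (log2 0.95, SE 0.20, adjusted p = 0.0143) and 2.08-fold at 6wk against 3wk (log2 1.05, SE 0.20, adjusted p = 0.00662). The call at 7wk was lost without 3wk B (0.88, adjusted p = 0.0509) or with the hybridisation controls as a covariate (0.94, adjusted p = 0.157). The call at 6wk was lost with the actin control ratio as a covariate (0.89, adjusted p = 0.152). Without 6wk A and B together, with 6wk C alone for 6wk, the difference was 1.02. The log2 difference of 1426859_at minus 1426858_at averaged −0.07 at 7wk and 1.52 at 3wk, so the 2 probe sets of the gene disagree on the size of the 3wk deficit.

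Tgfb3 encodes the third TGF-beta isoform. On 3wk arrays A, B and C its probe set 1417455_at had ratios of 0.353, 0.215 and 0.406, on 4wk arrays 0.641, 0.460 and 0.775, and on 5wk arrays 1.17 and 1.24. At 6wk the ratios were 0.948, 1.05 and 1.87, and at 7wk 1.76, 1.67 and 1.18. The 3wk, 4wk and 5wk arrays formed 3 separate steps, after which 6wk overlapped both 5wk and 7wk, with 6wk C far above 6wk A and B. Tgfb3 averaged 1.54 ± 0.312 at 7wk against 0.325 ± 0.0986 at 3wk (SD, n = 3 each), a 4.83-fold rise (log2 2.27, SE 0.31, adjusted p = 0.00176). It was 3.93-fold higher at 6wk than at 3wk (log2 1.97, adjusted p = 0.00280) and higher at 5wk than at 3wk by 1.95 (SE 0.35, adjusted p = 0.0142). Without 5wk A the difference was 1.99 (adjusted p = 0.0775) and without 5wk B 1.90 (adjusted p = 0.0965), fits in which 1 array stands for 5wk and is assumed to vary like the other ages.

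Inhba encodes the subunit of activin A. Its ratios at 1422053_at were 2.24, 2.98 and 0.950 on 3wk arrays A, B and C, 2.61, 4.90 and 0.983 on the 4wk arrays, 1.04 and 0.826 on the 5wk arrays, 0.493, 1.02 and 1.21 on the 6wk arrays, and 0.595, 0.731 and 0.933 on the 7wk arrays. The high values came from arrays A and B of 3wk and 4wk, and array C of both ages lay close to 1, within the later range. The mean was 0.753 ± 0.170 at 7wk against 2.06 ± 1.03 at 3wk (SD, n = 3 each), with no overlap, a log2 difference of −1.32 (SE 0.58) that was not called (adjusted p = 0.203). Over the 5 ages the F test gave an adjusted p of 0.197. The log2 ratio of Inhbb 1426858_at over Inhba on the same array, each relative to its own median, averaged 0.85 ± 0.62 at 7wk against −3.01 ± 1.06 at 3wk (SD, n = 3 each), a description with no test of its own.

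Tgfb2, another TGF-beta isoform, was read by 3 probe sets that did not move together. Probe set 1450922_a_at had ratios of 0.146, 0.283 and 0.954 on the 3wk arrays, 1.21, 0.886 and 0.936 on the 4wk arrays, 1.75 and 0.656 on the 5wk arrays, 2.51, 1.02 and 1.66 on the 6wk arrays, and 0.981, 1.20 and 1.53 on the 7wk arrays. Its 3wk arrays A and B were the lowest of all 14, whereas 3wk C lay within the 4wk range. It was 4.75-fold higher at 6wk than at 3wk (log2 2.25, SE 0.60, adjusted p = 0.0329), a call that was lost without 3wk A (adjusted p = 0.1002), 3wk B (0.0864), 6wk A (0.109) or 6wk C (0.0795). The call was lost too with array weights (adjusted p = 0.0597) and with the actin covariate (adjusted p = 0.263). Without 6wk A and B together, with 6wk C alone for 6wk, the difference was 2.28, and over all these fits it was 1.64 to 2.28. At 7wk against 3wk the difference of 1.84 (SE 0.60) was not called (adjusted p = 0.0918), and without 3wk C it was 2.58 (adjusted p = 0.0133). The other probe sets, 1423250_a_at and 1450923_at, were dim, with recovered levels of 60 to 424 and 42 to 392 steps against a lower limit of 200, and were not called in any comparison (7wk minus 3wk 0.28, SE 0.42, and 0.25, SE 0.44). A step is the smallest difference in array signal that the ratios still show. With the mean of a gene's probe sets in their place, Tgfb2 was higher by 1.15 at 6wk (adjusted p = 0.00507) and 0.79 at 7wk (adjusted p = 0.0370) than at 3wk.

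Tgfb1, the isoform first described, had ratios of 0.647, 0.928 and 0.922 on the 3wk arrays, 1.21, 0.886 and 1.22 on the 4wk arrays, 1.10 and 0.966 on the 5wk arrays, 0.622, 0.545 and 1.35 on the 6wk arrays, and 1.42, 1.41 and 1.03 on the 7wk arrays. All 7wk arrays lay above all 3wk arrays, and 6wk A and B were the lowest of the 14 while 6wk C was among the highest. The difference of 0.63 at 7wk against 3wk (SE 0.31) was not called (adjusted p = 0.260). At 7wk against 6wk it was 0.73 (adjusted p = 0.334), and without 6wk C 1.13 (adjusted p = 0.0461).

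Of the BMP ligands, Bmp4 had ratios between 0.496, on 5wk A, and 1.19, on 3wk A, and averaged 0.964 ± 0.0494 at 7wk against 1.05 ± 0.138 at 3wk (SD, n = 3 each; log2 −0.11, SE 0.27, adjusted p = 0.856). Its arrays overlapped between these ages. Bmp2 was below the limit of 200 steps on all arrays but 7wk A, with recovered levels of 15 to 415 steps. Its ratios were 2.67, 1.34 and 0.794 at 7wk and 0.170, 1.39 and 0.135 at 3wk, all but the 2.67 of 7wk A from levels under that limit. The mean was higher at 7wk (1.60 ± 0.966) than at 3wk (0.565 ± 0.715; SD, n = 3 each), but the ages overlapped, with 3wk B above 7wk B and C. Fst, the inhibitor among the members, stayed between 0.779 and 1.34 and averaged 1.01 ± 0.0768 at 7wk against 0.919 ± 0.104 at 3wk (log2 0.13, SE 0.14, adjusted p = 0.643). Its highest mean was 1.18 ± 0.136 at 4wk (SD, n = 3), where all 3 arrays exceeded those of 3wk without a call (0.37, adjusted p = 0.417).

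**Figure D2:**
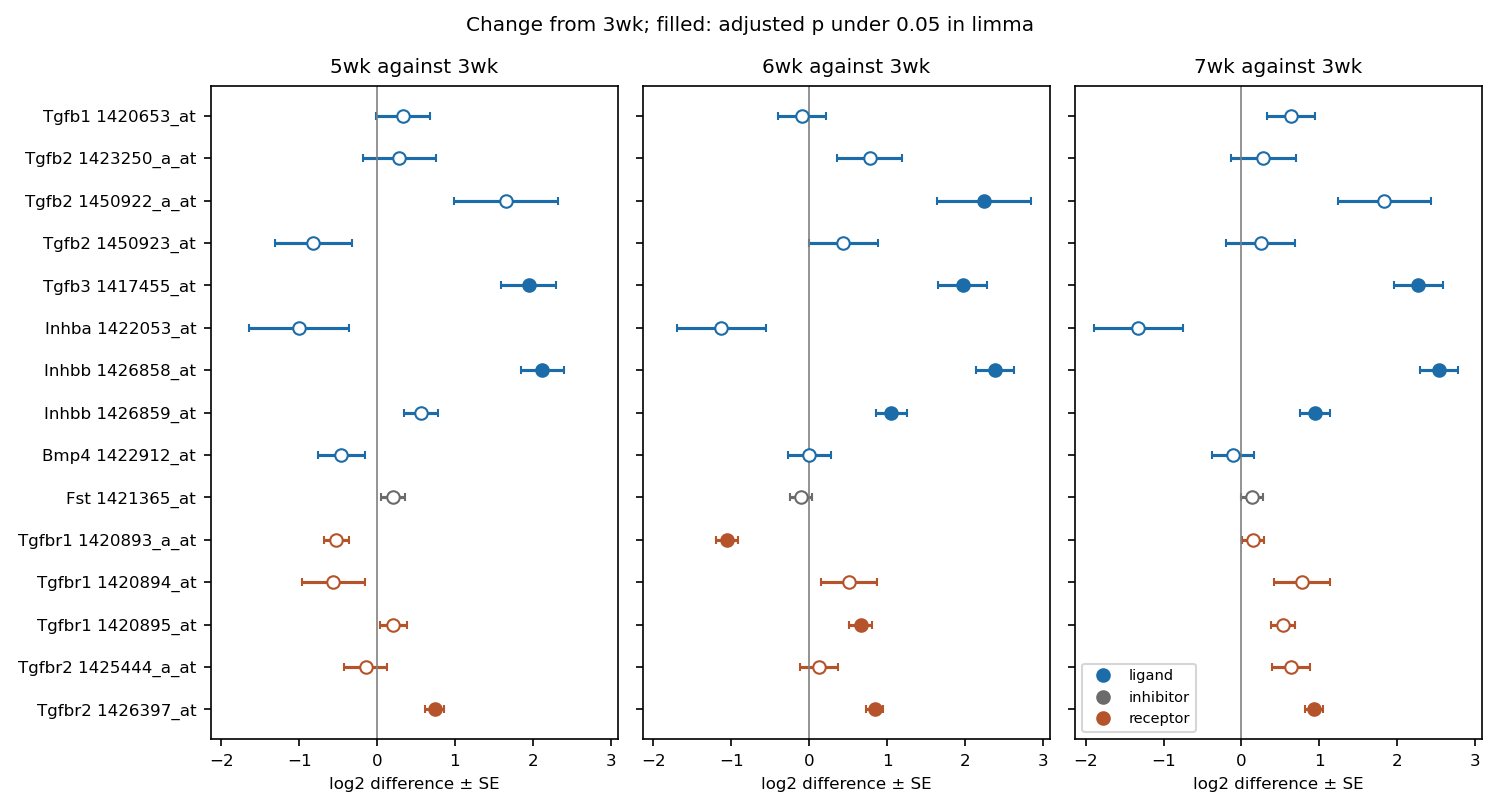
Log2 difference of 5wk, 6wk and 7wk from 3wk for the 15 tested member probe sets, with bars of ±1 SE. Filled points passed the threshold: 3 at 5wk, 7 at 6wk and 4 at 7wk, of which only Tgfbr1 1420893_a_at, at 6wk, lay below 0.

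Tgfbr2 encodes the type II receptor, which binds TGF-beta first. Its probe set 1426397_at had ratios of 0.530, 0.668 and 0.606 on the 3wk arrays, 0.879, 0.810 and 0.847 on the 4wk arrays, 0.978 and 1.02 on the 5wk arrays, 1.06, 1.07 and 1.08 on the 6wk arrays, and 1.12, 1.20 and 1.12 on the 7wk arrays. Every array of each age lay above every array of the age before it, over narrow ranges. It rose 1.91-fold at 7wk, with a mean of 1.14 ± 0.0448 against 0.601 ± 0.0691 at 3wk (SD, n = 3 each; log2 0.93, SE 0.11, adjusted p = 0.000797), and was called at 6wk (log2 0.84, adjusted p = 0.00113) and 5wk (log2 0.74, adjusted p = 0.0104) too. With a single 5wk array, again assumed to vary like the other ages, the 5wk difference was 0.77 without 5wk A (adjusted p = 0.0568) and 0.71 without 5wk B (adjusted p = 0.0881).

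The other Tgfbr2 probe sets were less clear. Probe set 1425444_a_at averaged 1.30 ± 0.160 at 7wk against 0.837 ± 0.0308 at 3wk (SD, n = 3 each), and its difference of 0.63 (SE 0.24) was not called (adjusted p = 0.150) although the arrays did not overlap. Without 6wk C, an array that stood at 1.41 beside 0.673 and 0.792 on 6wk A and B, the adjusted p was 0.0410. The mean of both tested probe sets was higher by 0.78 at 7wk than at 3wk (adjusted p = 0.00761), and was not called at 6wk (0.48, adjusted p = 0.0516) or 5wk (0.30, adjusted p = 0.380). Probe set 1422019_at had recovered levels of 5 to 169 steps, below the limit on all arrays, and its ratios ran from 0.111 to 3.62 with overlap between all ages except 4wk and 6wk.

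Tgfbr1 encodes the type I receptor that Tgfbr2 recruits, and of its 3 probe sets 1420893_a_at went opposite to the others at 6wk. On 1420893_a_at the ratios were 1.13, 0.965 and 1.10 for the 3wk arrays, 0.869, 1.10 and 1.04 for the 4wk arrays, 0.656 and 0.829 for the 5wk arrays, 0.542, 0.529 and 0.465 for the 6wk arrays, and 1.15, 1.30 and 1.10 for the 7wk arrays. The 6wk arrays were the lowest of the 14, and the 3wk, 4wk and 7wk arrays shared 1 range. This probe set fell at 6wk to a mean of 0.512 ± 0.0412, against 1.06 ± 0.0868 at 3wk (SD, n = 3 each; log2 −1.05, SE 0.14, adjusted p = 0.00124), and was 2.31-fold higher at 7wk than at 6wk (log2 1.21, SE 0.14, adjusted p = 0.00454). Its recovered levels were 182, 174 and 207 steps on the 6wk arrays, around the limit of 200, and 342, 274 and 370 steps at 3wk.

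On 1420895_at the 6wk arrays were instead among the highest, at 1.33, 1.25 and 1.29, against 0.734, 0.828 and 0.897 at 3wk, with 7wk at 1.25, 1.04 and 1.28. It rose 1.58-fold at 6wk against 3wk (log2 0.66, SE 0.15, adjusted p = 0.0166) and was 1.45-fold higher at 7wk without a call (adjusted p = 0.0540). That 6wk call was lost without 3wk A (adjusted p = 0.0546) or 6wk A (adjusted p = 0.0532) or with the actin covariate (adjusted p = 0.186), at differences of 0.58 to 0.64. Without 6wk A and B together, with 6wk C alone for 6wk, the difference was 0.66. Probe set 1420894_at averaged 1.44 ± 0.123 at 7wk and 1.20 ± 0.157 at 6wk, against 0.889 ± 0.389 at 3wk (SD, n = 3 each), and was not called. It was dim, with recovered levels of 67 to 425 steps around the limit of 200. The difference of 1420895_at minus 1420893_a_at was between 1.24 and 1.48 on the 6wk arrays, against −0.62 to −0.22 on the 3wk arrays. Averaged over its probe sets, Tgfbr1 differed by 0.04 (SE 0.16) between 6wk and 3wk.

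The control probe sets that report RNA length moved at the same age. The log2 ratio of the 5′ over the 3′ actin controls lay between −0.79 and −0.08 at 6wk, against −0.06 to 0.18 at 3wk, and that of pyruvate carboxylase between −2.78 and −1.81 at 6wk, against −0.66 to 0.32 at 3wk. At 5wk the actin ratios were −0.16 and −0.26 and the pyruvate carboxylase ratios −1.25 and −0.66. At 7wk they were 0.04 to 0.16 for actin and 0.76 to 0.90 for pyruvate carboxylase, so the pyruvate carboxylase ratio was higher on every 7wk array than on any 3wk array. The part of the pyruvate carboxylase ratio in the members' differences was not tested. With the actin ratio as a covariate the Tgfbr1 1420893_a_at difference at 6wk against 3wk was −1.21 (SE 0.22, adjusted p = 0.0202) and remained called, while at 7wk against 6wk it was 1.37 (SE 0.23, adjusted p = 0.0992) and was not. Leaving out 6wk A and 6wk B, whose actin ratios were the lowest, left 6wk C alone for 6wk, and these differences were −1.19 and 1.34. The pyruvate carboxylase ratio of 6wk C, −1.81, was still lower than on any array of another age, so this fit does not remove RNA length. The hybridisation controls were lowest at 7wk, and with their mean as a covariate the 7wk against 6wk difference was 1.21, as without it, with a larger SE (0.20) and an adjusted p of 0.0739.

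**Figure D3:**
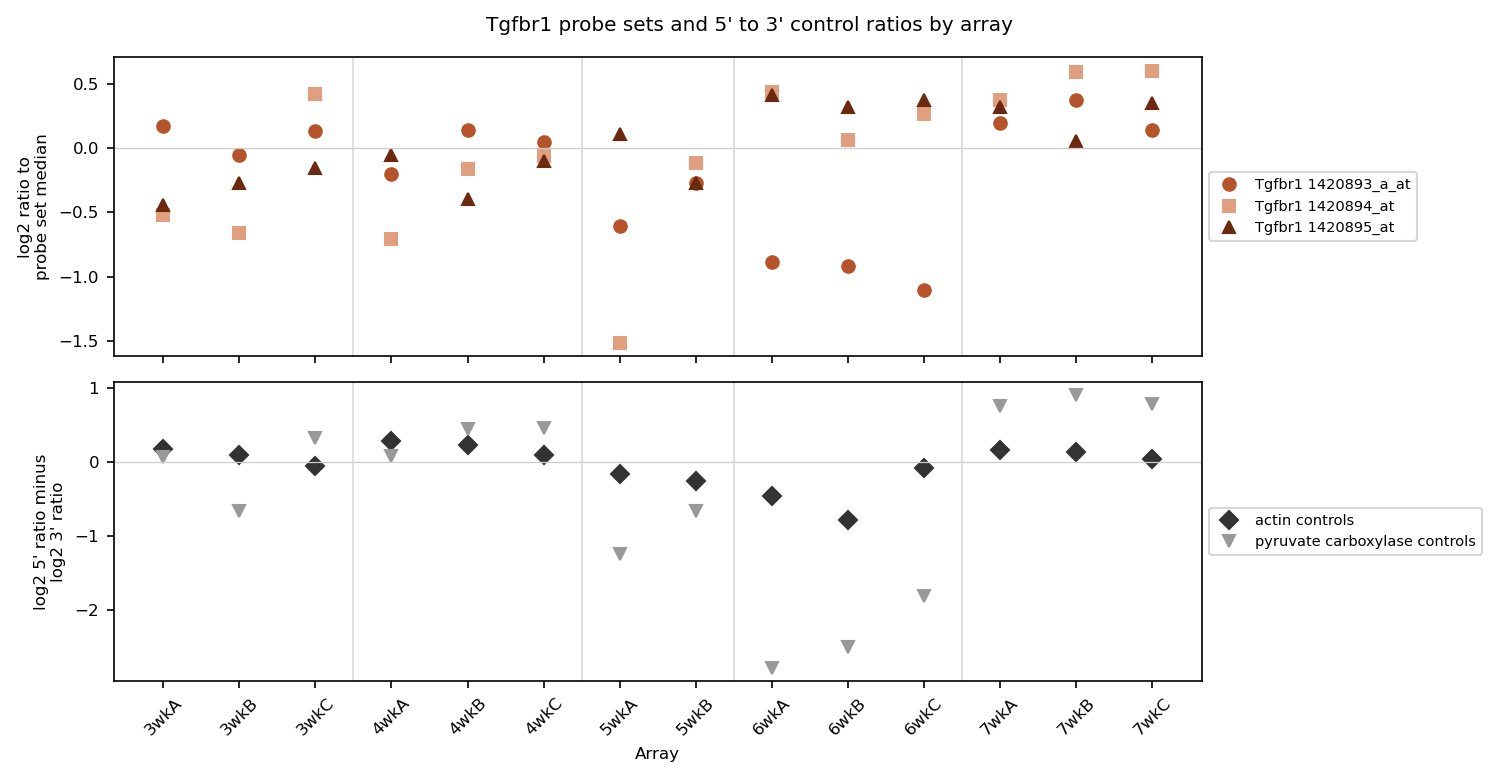
Upper panel, log2 ratio of the 3 Tgfbr1 probe sets on each array. Lower panel, log2 of the 5′ minus the 3′ control ratio for actin and pyruvate carboxylase on the same arrays, each set relative to its own median, so that 0 does not mean equal signal. On the 6wk arrays 1420893_a_at lies below the other 2 probe sets and the pyruvate carboxylase ratio is at its lowest, while the actin ratio is lowest on 6wk A and B and that of 6wk C lies above both 5wk arrays.

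By comparison, calls were placed as follows. At 5wk against 3wk 3 of 15 member probe sets were higher (Tgfb3, Inhbb 1426858_at and Tgfbr2 1426397_at), against 3.28% of all probe sets called in either direction and 2.18% higher. The 6wk against 3wk comparison called 7 of 15, 6 higher, against 8.53% of all, and 1 lower, against 4.29%, or 12.8% in either direction. For 7wk against 3wk 4 of 15 were called, all higher, against 8.02% of all and 5.59% higher. These comparisons share the 3wk arrays, so they are not independent of each other.

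Between neighbouring weeks few members were called. For 4wk against 3wk limma called 0 of 15, against 0.151% of all, with 6 at an unadjusted p under 0.05, against 10.1% of all, where Inhbb 1426858_at had the smallest (log2 1.16, SE 0.25, adjusted p = 0.132). At 5wk against 4wk the count was 0, against 0.601% of all, with 4 unadjusted, against 14.7%, and at 6wk against 5wk it was 0, against 0.209% of all, with 5 unadjusted, against 10.3%. Tgfbr1 1420893_a_at at 7wk against 6wk was the only member called between neighbouring weeks, against 0.815% of all.

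Without regard to the threshold, 8 of the 15 members had all 7wk arrays above all 3wk arrays, against 18% of all probe sets, and 1 member, Inhba, had them all below, against 9.84%. The median log2 difference of the 15 at 7wk against 3wk was 0.63, against 0.08 over all probe sets, and 13 of 15 were positive, against 58.1% of all. Several members were read by more than 1 probe set, so these counts are not over separate genes.

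Epithelial markers moved with Tgfb3 and Inhbb. The mean log2 ratio of the luminal and pan-epithelial list lay between 0.36 and 0.64 on the 7wk arrays, against −2.35 to −1.43 on the 3wk arrays. Of its 13 tested genes 12 were higher at 7wk than at 3wk, on 18 of 19 probe sets, where 5.59% of all were higher. The basal and myoepithelial list lay between −0.03 and 0.25 at 7wk, against −0.88 to −0.57 at 3wk, with 5 of 11 genes higher, on 6 of 18 probe sets. Relative to the luminal list on the same array, the 7wk minus 3wk difference was −0.02 for Tgfb3 and 0.25 for Inhbb 1426858_at, −1.34 for Inhbb 1426859_at, −1.35 for Tgfbr2 1426397_at and −3.61 for Inhba. The part of epithelial content in these changes was not tested.

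Other cell types moved less or the other way. Of the fibroblast list 1 of 11 genes was higher and 2 were lower at 7wk than at 3wk (median 0.03), on 1 and 2 of 18 probe sets. Over all probe sets 5.59% were higher and 8.02% were called in either direction. The endothelial list had 1 of 9 genes higher, on 1 of 11 probe sets (median −0.25), and the macrophage list 1 of 8, on 1 of 10 (median 0.26). The lymphocyte list had 1 of 7 higher, Jchain, on 1 of 8 probe sets (median 0.10). Skeletal muscle markers had a median of −0.37. Adipocyte markers were lower for 3 of 8 genes, on 5 of 12 probe sets, and brown adipocyte markers for 7 of 9, on 7 of 11. The brown adipocyte list had a mean of −1.01 to −0.31 on the 7wk arrays, against 0.89 to 1.63 on the 3wk arrays. Inhba was high on arrays A and B of 3wk and 4wk and not on array C, whereas the brown adipocyte mean was high on all 6 of these arrays, 0.72 to 1.63. How far any of these cell types bears on Inhba was not tested.

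**Figure D4:**
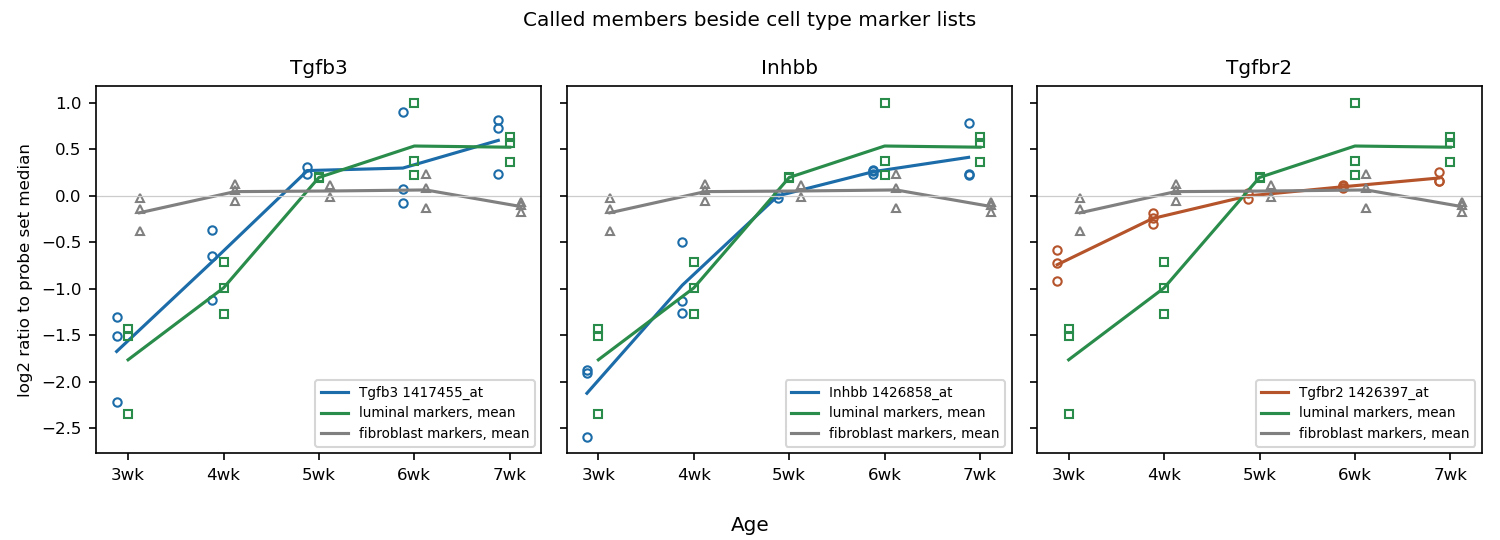
Log2 ratios of Tgfb3, Inhbb 1426858_at and Tgfbr2 1426397_at on each array by age, beside the mean log2 ratio of the luminal and fibroblast marker lists (lines join the means of an age). The means of Tgfb3 and Inhbb run close to the luminal mean at all 5 ages, while single arrays such as 3wk A differ more, and Tgfbr2 has a smaller range.

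For each member called over the 5 ages, the genes with the smallest mean absolute log2 difference over the 14 arrays were listed. Closest to Inhbb 1426858_at was Cdh1, E-cadherin of epithelial junctions, at 0.168, followed by Lcn2, a secreted lipocalin, at 0.190 and Wfdc2, a secreted protein of epithelia, at 0.204. The median over all tested probe sets of other genes was 0.857. Closest to Tgfb3 were Foxi1, a forkhead transcription factor, at 0.221, Aldoc, an aldolase, at 0.254 and Spint2, a membrane protease inhibitor of epithelia, at 0.262, with a median of 0.794. Tgfbr2 1426397_at lay nearest to Rnf130 at 0.0995, Fundc1, a mitochondrial outer membrane protein, at 0.112 and the integrin subunit Itgb5 at 0.116, with a median of 0.384. The genes nearest to Tgfbr1 1420893_a_at were Mbd1 at 0.169, Trim25 at 0.177 and Arhgap1 at 0.181, with a median of 0.481. These values share arrays and their scaling and describe likeness only.

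The rest of the pathway was read from gene lists, chosen like the members with earlier results of these data known. Whether calls of these lists were kept in the alternatives applied to the members was not tested. Over all probe sets, calls at 6wk against 3wk fell from 2455 to 531 with the actin ratio as a covariate. Those at 7wk against 3wk fell from 1535 to 333 with the hybridisation control covariate. A gene with several tested probe sets is given by the one with the smallest p, and at 7wk against 3wk Acvr1, Itgav and Id2 were called on 2 of 3, Twsg1 on 2 of 4, Id4 on 1 of 3, and Fn1 and Thbs1 on 1 of 2. Among 17 genes listed as other ligands, Gdf5 was the only ligand called at 7wk against 3wk, and it was lower (−1.98, SE 0.55, adjusted p = 0.0489). The list also holds Bmp1, not a ligand but a protease that trims procollagen and frees BMPs from chordin. Bmp1 was higher (0.96 on 1 of its 3 probe sets, SE 0.24, adjusted p = 0.0339). These were 2 of 20 probe sets, where 8.02% of all were called. The median of the list was 0.10, against 0.08 over all probe sets. Among 11 other receptors, the type I receptor Acvr1 alone was called at 7wk against 3wk (0.82, SE 0.13, adjusted p = 0.00366), on 2 of the 20 probe sets of that list. At 6wk against 3wk Acvr1 (0.87), Acvr1b, the type I receptor of activin (0.68, SE 0.14, adjusted p = 0.00988), and Bmpr1a (0.67, SE 0.15, adjusted p = 0.0155) were higher and Acvr1c, another activin and nodal receptor, was lower (−0.99, SE 0.18, adjusted p = 0.00571). These were 4 of 20 probe sets, where 12.8% of all were called. Bmpr1a was called on 1 of its 5 probe sets and Acvr1 on 1 of 3, and the other Acvr1b probe set stood at −0.99 (SE 0.52, adjusted p = 0.237), opposite in sign.

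Of 12 Smad genes and partners, only Tgif1, a repressor that binds Smad2, was called at 7wk against 3wk (0.83, SE 0.16, adjusted p = 0.0117), and it was higher by 1.49 (adjusted p = 0.000403) at 6wk. At 5wk against 3wk it was higher by 1.44 (adjusted p = 0.00284). Its mean ratio was 0.555 at 3wk and 0.900 at 4wk, then 1.5 on the 5wk arrays, 1.55 on the 6wk arrays and 0.982 on those of 7wk. Smad4, the shared partner of the receptor-regulated Smads, was higher at 6wk than at 3wk by 0.71 (SE 0.13, adjusted p = 0.00687), and Smad5, which carries BMP signals, was lower (−0.69, SE 0.18, adjusted p = 0.0280). Smad4 was called on 2 of its 3 probe sets there and Smad5 on 1 of 2, and Tgif2 was higher as well (1.77, SE 0.47, adjusted p = 0.0305). Of the 20 probe sets of the list, 5 were called at 6wk against 3wk, where 12.8% of all were called. At 7wk against 3wk 1 was called, where 8.02% of all were. Neither Smad4 nor Smad5 was called at 7wk against 3wk (0.12 and 0.42).

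Extracellular binding proteins gave calls in 1 direction at 7wk against 3wk: 6 of 22 genes were higher, on 8 of 40 probe sets, where 5.59% of all probe sets were higher (median of the list 0.27, against 0.08 over all). Itgav, the integrin subunit that with its partners releases latent TGF-beta, was higher by 1.23 (SE 0.20, adjusted p = 0.00413), and Thbs1, a matrix protein that activates latent TGF-beta, by 1.38 (SE 0.31, adjusted p = 0.0202). Ltbp1, which tethers latent TGF-beta to the matrix, was higher by 0.89 (SE 0.20, adjusted p = 0.0206), and its relative Ltbp4 by 0.996 (adjusted p = 0.0120). The BMP antagonist Nbl1 rose by 1.85 (SE 0.49, adjusted p = 0.0415) and Twsg1, a binding partner of BMP and chordin, by 0.85 (SE 0.21, adjusted p = 0.0312).

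Among 26 genes known to respond to TGF-beta or BMP in other settings, 7 were higher and 1 was lower at 7wk than at 3wk (median 0.42, against 0.08 over all), on 9 of 44 probe sets, where 8.02% of all were called. At 6wk against 3wk 12 genes were higher, on 16 probe sets, where 8.53% of all were higher, and 1 was lower on 1 probe set, where 4.29% of all were lower. Id2 and Id4, inhibitors of basic helix-loop-helix factors, rose at 7wk against 3wk by 1.77 (SE 0.25, adjusted p = 0.00176) and 1.38 (SE 0.25, adjusted p = 0.00660), while their relative Id1 fell by 0.63 (SE 0.15, adjusted p = 0.0312). Fn1, fibronectin, rose by 1.10 (SE 0.15, adjusted p = 0.00137), the cell cycle inhibitor Cdkn2b by 1.88 (SE 0.42, adjusted p = 0.0204) and Acta2, smooth muscle actin, by 0.76 (SE 0.20, adjusted p = 0.0439). Acta2 also stands in the basal and myoepithelial list, which was higher at 7wk than at 3wk as given above. Id3 was higher at 6wk than at 3wk (0.92, SE 0.13, adjusted p = 0.00152) and not called at 7wk against 3wk (0.25).

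**Figure D5:**
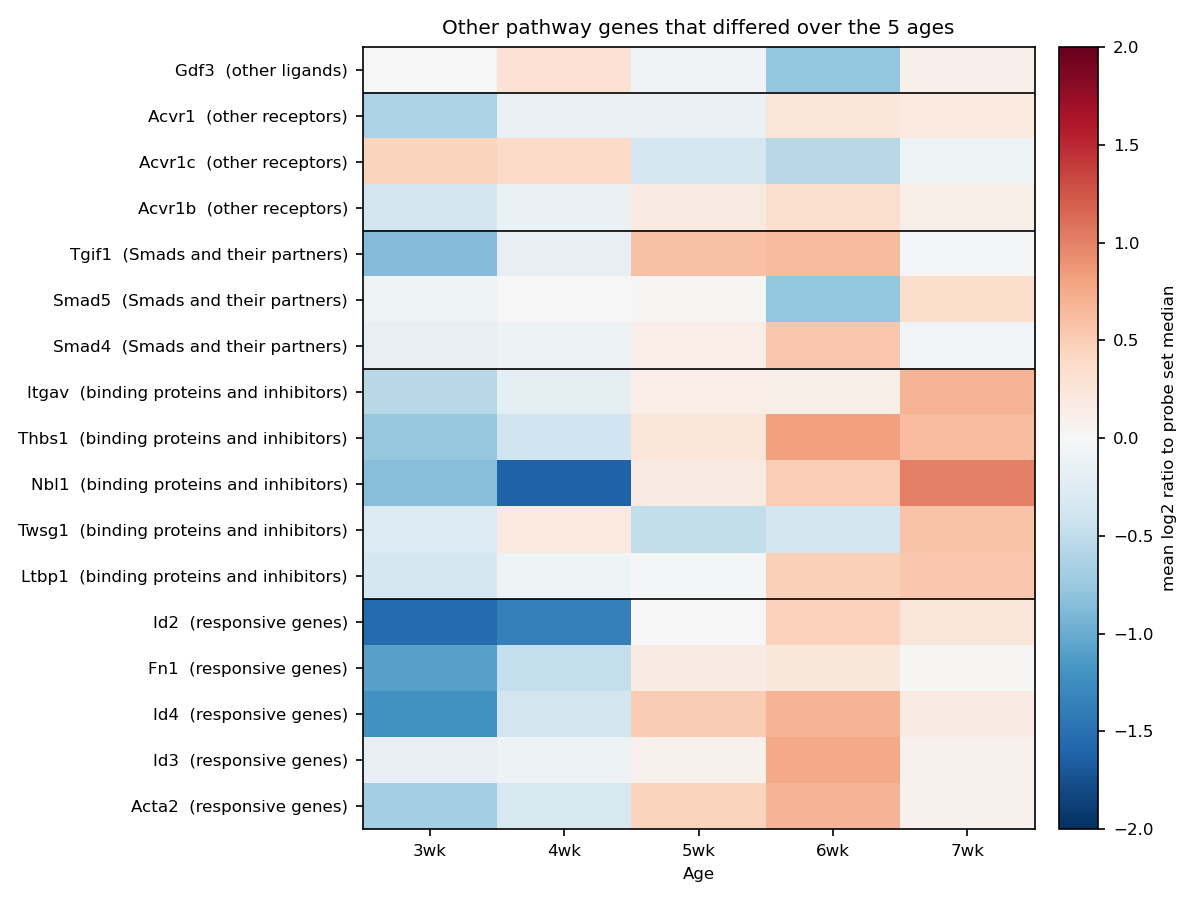
Mean log2 ratio to the probe set median at each age, in colour from −2 to 2, for up to 5 genes of each other pathway list with the smallest adjusted p in the F test. Id2, Fn1 and Id4 are lowest at 3wk, and Gdf3 and Smad5 are lowest at 6wk.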

How the data were processed

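Affymetrix arrays of whole mammary gland RNA pools were read from the deposited table. Per the values, the authors deposited linear ratios, each probe set divided by its own median over 14 arrays. The software behind the signals was not given in the sources used here. Ratios of 337 probe sets whose median lay below 0.98 were whole multiples of an array-specific step, 0.0593 to 0.101, so the authors had also scaled the arrays. With these steps the level before division was recovered for 9263 probe sets. Those below 200 steps on all arrays or all but 1 (3483) and 64 controls were left out, leaving 19143. Log2 ratios, with no offset and no further normalization, were fitted with age as a factor in limma 3.58.1 (R 4.3.3), with an F test and 7 two-sided comparisons, Benjamini-Hochberg adjusted within each at 0.05. The tests had been planned for signal values, hence the changed filter and offset.

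Gene names came from the platform annotation, checked against RefSeq (20351 matched of 20380 naming 1 gene). All members, up to 5 genes per pathway list with the smallest F test p, 3 nearest genes per called member and 5 markers were to be named; other genes were added after their values were seen. The members and lists were chosen with earlier results of these data known. On simulated data for 7wk against 3wk, 200 of 19143 probe sets were changed. Of log2 changes of 1, 32% were called, of 1.5 68%, of 2 78% and of 3 88%, with 5 false calls among 138. The measured comparison called 1535, and recovery with more probe sets changed was not tested. The letters A, B and C were not used to pair arrays. Deviations of same-letter arrays correlated between −0.0753 and 0.0686, and those of different-letter arrays between −0.1006 and 0.0837. Such correlations cannot show whether a letter marks shared mice or handling. Python 3.11.15 with pandas 2.3.3, numpy 2.4.6 and matplotlib 3.10.9 served for tables and plots.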

Additional observations from a re-analysis of the deposited data

How the results depend on the processing

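The number of arrays limits precision, and members near the array background (Bmp2, both dimmer Tgfb2 probe sets, Tgfbr1 1420894_at, Tgfbr2 1422019_at) have ratios that the background can set. Bmp4 (148 to 481 steps) was below 200 steps on 4wk C and 5wk A. Tgfbr1 1420893_a_at (174 to 540 steps) was below 200 steps on 5wk A, 6wk A and 6wk B. Over 23 alternatives, the calls of Inhbb 1426858_at (5wk, 6wk and 7wk against 3wk and the F test), of Tgfb3 (6wk and 7wk against 3wk and the F test) and of Tgfbr2 1426397_at (7wk against 3wk and the F test) were kept. Their highest adjusted p was 0.0258, 0.0303 and 0.0376. The Tgfbr1 1420895_at F test call (adjusted p = 0.0484) was lost in 20 of the 23, and that of Inhbb 1426859_at in 8. Averaging the probe sets of a gene reversed Tgfbr1 1420893_a_at at 6wk against 3wk (0.0380), since its probe sets disagree. In that setting 4 member genes of 9 were called at 7wk against 3wk, against 1022 of all 10973 genes. At 7wk against 6wk it called 0 members and 37 of 10973 genes, and at 6wk against 5wk 0 of 10973 genes.

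Member calls at 6wk against 3wk were 4 with the actin ratio as a covariate. At 7wk against 6wk they were 0 with that covariate and 0 with the hybridisation control covariate. Leaving out 6wk A and B, a setting chosen after the data were seen, leaves 6wk C alone for 6wk. Counts of calls in that setting, given below, rest on this array for 6wk and cannot separate RNA length from lost replication. Leaving out each array gave 4 to 6 member calls in the F test, 0 at 4wk against 3wk, 5wk against 4wk and 6wk against 5wk, 1 to 4 at 5wk, 5 to 7 at 6wk and 3 to 5 at 7wk against 3wk, and 1 to 2 at 7wk against 6wk.

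Counts over all probe sets moved more. The F test called 1837, against 939 with the hybridisation covariate, 811 with actin, 963 without 6wk A and B, and 1283 to 1568 without single arrays. At 4wk against 3wk (29) the count was 9 with no filter, 9 with quantile normalization, 17 with an offset of 0.1, 3 with the hybridisation covariate, 15 with actin and 0 to 27 without single arrays. At 5wk against 3wk (627) it was 198 to 595 without single arrays. At 6wk against 3wk (2455) it was 531 with actin, 707 without 6wk A and B and 1513 to 2360 without single arrays. At 7wk against 3wk (1535) it was 333 with the hybridisation covariate and 875 to 1491 without single arrays. At 5wk against 4wk (115) it was 73 with no filter, 298 with quantile normalization, 261 with array weights, 16 with the hybridisation covariate, 17 with actin and 12 to 162 without single arrays. At 6wk against 5wk (40) it was 8 with actin, 12 without 6wk A and B and 6 to 47 without single arrays. At 7wk against 6wk (156) it was 95 with no filter, 18 with the hybridisation covariate, 0 with actin, 32 without 6wk A and B and 39 to 230 without single arrays. The causes were not tested.

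With the letter as a replicate block, 9, 35 and 1 probe sets were called at 4wk against 3wk, 5wk against 4wk and 6wk against 5wk. What a letter shares between ages beyond its name was not known. Of the member calls, the block changed only Tgfbr1 1420895_at at 7wk against 3wk (adjusted p = 0.0447).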

Other observations

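Some pathway genes stood apart at 6wk alone. Gdf3, a ligand of the family, had a mean ratio of 0.583 at 6wk, against 1.01 at 3wk (log2 −0.78, SE 0.15, adjusted p = 0.00864), and 1.08 at 7wk, and Smad5 stood at 0.592 at 6wk, against 0.950 at 3wk, and at 1.27 at 7wk. Both were called higher at 7wk than at 6wk, and Id3 was called lower. The 6wk arrays had the lowest pyruvate carboxylase 5′ over 3′ ratios, and 6wk A and B the lowest actin ratios, and the part of RNA length in these values was not tested.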
